A study of Mus musculus with 6 samples.

Results

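Described here are 48 genes of amino acid supply: 29 genes of the response driven by the transcription factor ATF4, and the genes of 19 cytosolic aminoacyl-tRNA synthetase subunits. The rule names each gene, and the genes were matched to probes through the gene symbols of the array's annotation, older synthetase symbols included. Of the 48 genes, 46 had a probe among the 25697 probes of the array, which name 16561 genes, and Pycr1 and Slc7a5 were not analysed here. Each gene is given by its probe with the highest mean in the non-normalized table. Total RNA came from TUBO cells, a cultured mouse mammary carcinoma line from a BALB-neuT female. Mammary tumours of this strain arise from a rat neu oncogene under a mouse mammary tumour virus promoter. All cells grew attached, and all RNA was extracted with Trizol and measured on single-colour Illumina bead arrays. By title, the 3 TMA arrays hold cells in mammosphere medium, a DMEM-F12 base without serum that holds 0.4% albumin, insulin at 5 μg/ml and the growth factors bFGF and EGF at 20 ng/ml each, and the 3 TDA arrays hold cells in DMEM to which 20% fetal calf serum was added. In the source names the media stand the other way round, so groups are called by title and the medium behind each direction is unsettled. A single cell line was used, and no label says whether the 3 replicates of a group were separate cultures, so the spread that the p-values measure is that among these arrays and may be technical alone.

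ATF4 is a basic leucine zipper factor whose protein is made more efficiently when the kinases of the integrated stress response phosphorylate the initiation factor eIF2, as happens when amino acids run short or when misfolded proteins collect in the endoplasmic reticulum. Together with C/EBP proteins it binds C/EBP-ATF response elements in its target genes, which encode amino acid transporters, enzymes that make serine, asparagine and one-carbon units, and many of the cytosolic enzymes that load tRNAs with amino acids. ATF4 also switches on its own brakes and stress effectors, among them the pseudokinase gene Trib3, the glutathione-degrading enzyme gene Chac1 and the growth arrest factor gene Ddit3, known as CHOP.

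The response element can be read in the promoters of several of these genes. The promoter windows, credited to RefSeq (GRCm38.p6), run 5′ to 3′ on the gene's strand from 250 bases before the start site to 50 after it. Windows were available for 35 of the 48 genes. The core TGATGNAA, searched on both strands (TTNCATCA on the other), was present in 14 of these 35 genes, or 40%, compared with 4.51% of 27025 genes with a window in the table. The list was compiled from known ATF4 targets, so this share describes the list and is no independent evidence. The promoters of 5 of these genes follow, with the matches in capitals. They are the genes with a match that the naming rule, given with the processing, prints array by array. The largest difference comes first. Their windows are Asns at chr6:7693160-7693459 (minus strand), Slc7a11 at chr3:50443564-50443863 (minus strand), Gars1 at chr6:55037751-55038050 (plus strand), Aars1 at chr8:111033592-111033891 (plus strand) and Tars1 at chr15:11399609-11399908 (minus strand).
Asns: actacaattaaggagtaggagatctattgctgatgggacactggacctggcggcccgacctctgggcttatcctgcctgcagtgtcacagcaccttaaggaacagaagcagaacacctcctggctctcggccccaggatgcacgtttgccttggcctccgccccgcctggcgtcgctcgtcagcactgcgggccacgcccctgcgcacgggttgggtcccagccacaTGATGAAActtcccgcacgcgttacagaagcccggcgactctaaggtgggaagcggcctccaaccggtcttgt
Slc7a11: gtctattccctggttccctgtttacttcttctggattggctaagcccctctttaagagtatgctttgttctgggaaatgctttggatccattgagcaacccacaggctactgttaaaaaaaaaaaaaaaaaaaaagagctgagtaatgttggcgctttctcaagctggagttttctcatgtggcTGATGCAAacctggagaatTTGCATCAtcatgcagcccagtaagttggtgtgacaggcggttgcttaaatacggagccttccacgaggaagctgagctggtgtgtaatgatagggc
Gars1: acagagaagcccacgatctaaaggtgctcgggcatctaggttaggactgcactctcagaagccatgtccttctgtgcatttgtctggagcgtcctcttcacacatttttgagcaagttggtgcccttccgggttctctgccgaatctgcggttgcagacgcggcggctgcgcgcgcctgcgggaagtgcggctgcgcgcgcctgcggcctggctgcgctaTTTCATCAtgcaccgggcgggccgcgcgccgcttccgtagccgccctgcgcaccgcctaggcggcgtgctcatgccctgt
Aars1: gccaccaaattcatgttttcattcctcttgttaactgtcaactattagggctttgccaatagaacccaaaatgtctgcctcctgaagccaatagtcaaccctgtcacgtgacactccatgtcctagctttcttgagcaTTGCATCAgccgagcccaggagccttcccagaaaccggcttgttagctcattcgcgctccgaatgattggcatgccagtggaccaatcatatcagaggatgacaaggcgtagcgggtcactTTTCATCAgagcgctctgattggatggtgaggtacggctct
Tars1: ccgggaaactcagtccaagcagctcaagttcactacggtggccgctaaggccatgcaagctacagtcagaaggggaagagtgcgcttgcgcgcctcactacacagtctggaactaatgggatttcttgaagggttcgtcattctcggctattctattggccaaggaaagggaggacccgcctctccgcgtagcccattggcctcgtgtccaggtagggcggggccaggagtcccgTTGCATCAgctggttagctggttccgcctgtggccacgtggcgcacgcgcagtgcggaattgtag
The Asns match begins 23 bases before the start site, the Tars1 match 15 bases before it and the Gars1 match 30 bases before it. Slc7a11 carries 2 matches on opposite strands, the first beginning 66 bases before the start site, and Aars1 carries 2 matches on the same strand. The other genes with a match were Chac1, Nupr1, Pck2, Pycr1, Slc1a4, Trib3, Vldlr, Iars1 and Yars1. The windows of Atf4, Ddit3, Psat1, Mthfd2, Phgdh and Farsb held no match, which says only that these letters are absent from these stretches.

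The 6 arrays shared a chip, with TMA at positions A to C and TDA at positions D to F, so position and group cannot be told apart. Mean raw signal per probe lay between 615 and 635 on the TMA arrays and was 845, 582 and 560 on TDA1, TDA2 and TDA3. All values below are log2 of the background-corrected intensity after quantile normalization. Of 7 epithelial markers on the array, 6 were bright enough to be tested, and their list averaged between 11.18 and 11.65 on the TMA arrays and between 10.88 and 11.01 on the TDA arrays. Markers of leukocytes passed the filter in 0 of 5 cases, those of fibroblasts in 1 of 8, those of endothelium in 2 of 5 and those of adipocytes in 1 of 4, and the averages of these 4 lists stayed between 6.53 and 7.22 on all 6 arrays. Probes were tested where their mean over the 6 arrays exceeded the median of all probes, 7.01, and 38 of the 46 genes passed. The 8 genes below it were Psph, Pck2, Cth, Cbs, Slc7a3, Slc1a5, Cars1 and Yars1, whose means lay between 6.27 and 6.94 and whose differences ranged from -0.59 for Cbs to 0.31 for Cars1. No detection p-value accompanies these dim probes, so no level is claimed for them.

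Most genes of amino acid supply had lower means on the TMA arrays than on the TDA arrays, and the serine enzyme gene Psat1 alone passed the test. Of the 38 tested genes, 34 had a TMA mean below the TDA mean, as did 50.6% of all 12848 tested probes, and of all 46 genes on the array 38 did. After Benjamini-Hochberg adjustment over all tested probes, limma called 1 gene lower, or 2.63% of the 38, beside 1.49% of all tested probes called lower, and 0 genes higher, beside 1.53% of all tested probes called higher. One call in 38 is close to that background. At an unadjusted p of 0.05, 16 genes were lower, or 42.1%, beside 8.92% of all tested probes, and 1 was higher, beside 9.60%. The 3 TMA values all lay below the 3 TDA values in 15 genes, or 39.5%, beside 11.1% of all tested probes, and all above them in 1 gene, beside 11.9%. At least a 2-fold lower TMA mean was seen in 10 genes, or 26.3%, beside 1.77%. Slc7a1 and Slc3a2 passed the filter through 1 group alone, since the TDA mean of Slc7a1 and the TMA mean of Slc3a2 lay below it. Over the other 36 genes, 33 were below 0, 16 were lower and 0 higher at an unadjusted p of 0.05, and 14 were lower and 0 higher with no overlap. The median difference was -0.52 over the 38 tested genes, -0.45 over all 46 and -0.004 over all tested probes. In these bulk samples fewer cells that express a gene and less RNA per cell cannot be told apart.

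**Figure D1:**
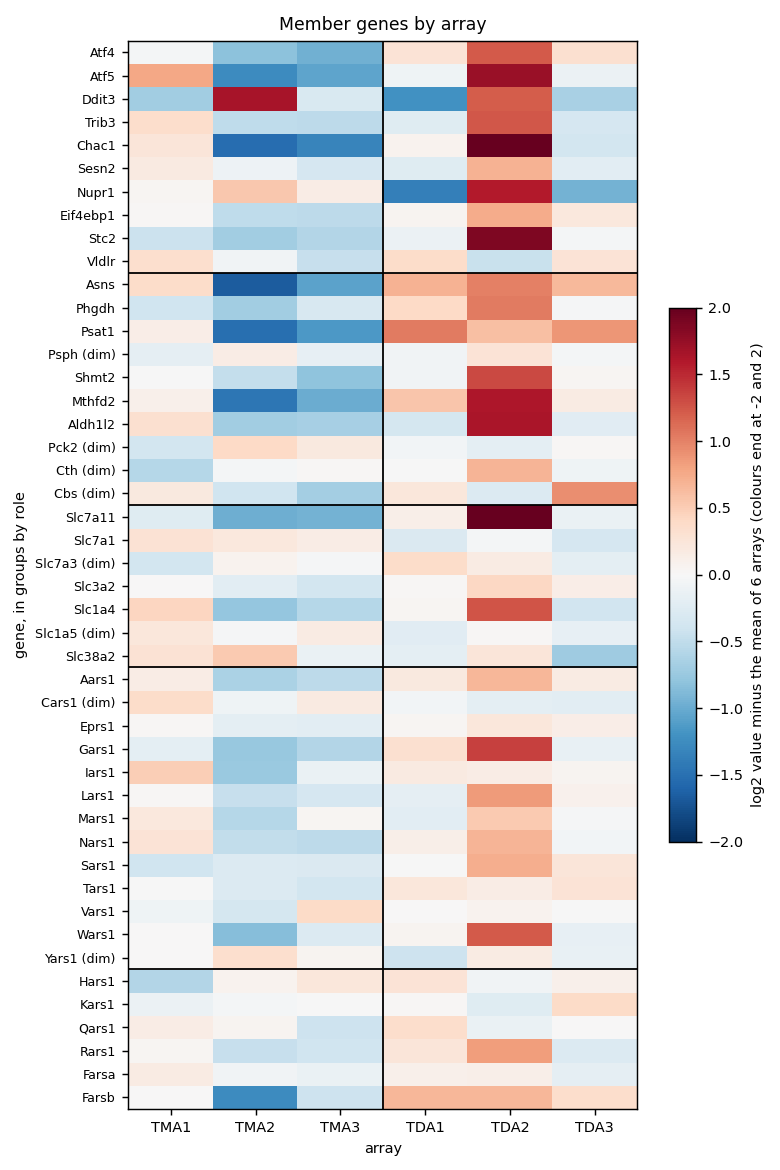
Each row is a gene and each column an array, with colour giving the log2 value minus that gene's mean over the 6 arrays; black lines part the 5 groups by role and the TMA arrays from the TDA arrays, and "(dim)" marks the 8 genes that were not tested. The TDA2 column is the reddest, with the highest value in 25 of 38 tested genes, and TMA2 and TMA3 are the bluest.

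The arrays within each group were far apart for these genes. TDA2 held the highest of the 6 values in 25 of the 38 tested genes, or 65.8%, beside 21.8% of all tested probes. The lowest value was on TMA2 in 19 genes and on TMA3 in 11, together 78.9%, beside 34.2% of all tested probes. Among the TMA arrays, TMA1 was the highest in 30 of the 38 genes, beside 35.4% of all tested probes. The 38 genes averaged 9.73, 9.19 and 9.23 on TMA1, TMA2 and TMA3, against 9.72, 10.51 and 9.65 on TDA1, TDA2 and TDA3. TMA1 was thus level with TDA1 and TDA3 on average, and the groups overlapped. Without TDA2 the median difference was -0.29, with 30 of 38 genes below 0 and 10 at an unadjusted p under 0.05 on the lower side, and the adjusted test called Psat1 lower and Nupr1 higher, beside 2.65% and 2.45% of all tested probes. At the unadjusted threshold 9.71% of all tested probes were lower in that fit. TDA2 was singled out from these same values, so the fit without it is a description and no independent evidence. Without TMA1 the median was -0.69 and 6 genes were called lower, beside 2.68% of all tested probes, whose calls in both directions came to 695, against 387 with all arrays. Leaving out TMA2, TMA3, TDA1 or TDA3 left 0 genes called in limma, where 21, 3, 8 and 106 of all tested probes were called. In these 4 fits 9, 10, 16 and 17 genes were lower at an unadjusted p under 0.05, beside 6.23%, 6.41%, 6.82% and 8.51% of all tested probes.

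The enzymes of serine, asparagine and mitochondrial folate metabolism showed the widest separation of the groups. All 6 tested enzyme genes had lower TMA means, with a median difference of -1.25, beside 50.6% of all tested probes below 0. An unadjusted p under 0.05 was reached by 5, beside 8.92% of all tested probes on the lower side. Psat1, which encodes the aminotransferase of serine synthesis, measured 10.77, 9.13 and 9.48 on TMA1, TMA2 and TMA3, against 11.67, 11.23 and 11.51 on TDA1, TDA2 and TDA3. The TDA values lay close together and TMA1 stood nearest to them. Psat1 fell by 1.68 on the log2 scale (standard error 0.35, limma adjusted p = 0.027), a 3.20-fold lower mean on the TMA arrays. Its call was lost without TMA2, TMA3, TDA1 or TDA3, with adjusted p of 0.128, 0.164, 0.135 and 0.0781, and held without TMA1 or TDA2.

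Asns, the asparagine synthetase gene, came next in size among the enzymes. Its values were 11.92, 9.89 and 10.48 on TMA1, TMA2 and TMA3, against 12.25, 12.56 and 12.19 on TDA1, TDA2 and TDA3. The groups did not overlap, though TMA1 was only slightly below TDA3. The difference was -1.57 ± 0.40 (standard error, limma adjusted p = 0.0548), and both other Asns probes were also lower, at -1.34 and -0.82. Mthfd2, the mitochondrial enzyme that oxidises methylene-folate and is abundant in tumours and embryos, had 8.67, 7.12 and 7.57 on TMA1, TMA2 and TMA3, against 9.12, 10.19 and 8.72 on TDA1, TDA2 and TDA3. TMA1 and TDA3 almost met, and the difference was -1.56 ± 0.41 (standard error, limma adjusted p = 0.0605). Phgdh, which opens serine synthesis from a glycolytic intermediate, measured 7.94, 7.65 and 8.03 on TMA1, TMA2 and TMA3, against 8.74, 9.39 and 8.32 on TDA1, TDA2 and TDA3, a difference of -0.94 (limma adjusted p = 0.0751). The TMA values of this gene were tightly grouped below every TDA value. For Shmt2, the mitochondrial serine hydroxymethyltransferase, and Aldh1l2, which releases carbon dioxide from formyl-folate, TMA1 overlapped with TDA1, and the differences were -0.87 and -0.69 (limma adjusted p of 0.194 and 0.463). Among the dim enzymes, Psph, the last step of serine synthesis, differed by -0.12, the transsulfuration genes Cth and Cbs by -0.39 and -0.59, and the mitochondrial carboxykinase gene Pck2 by 0.15.

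**Figure D2:**
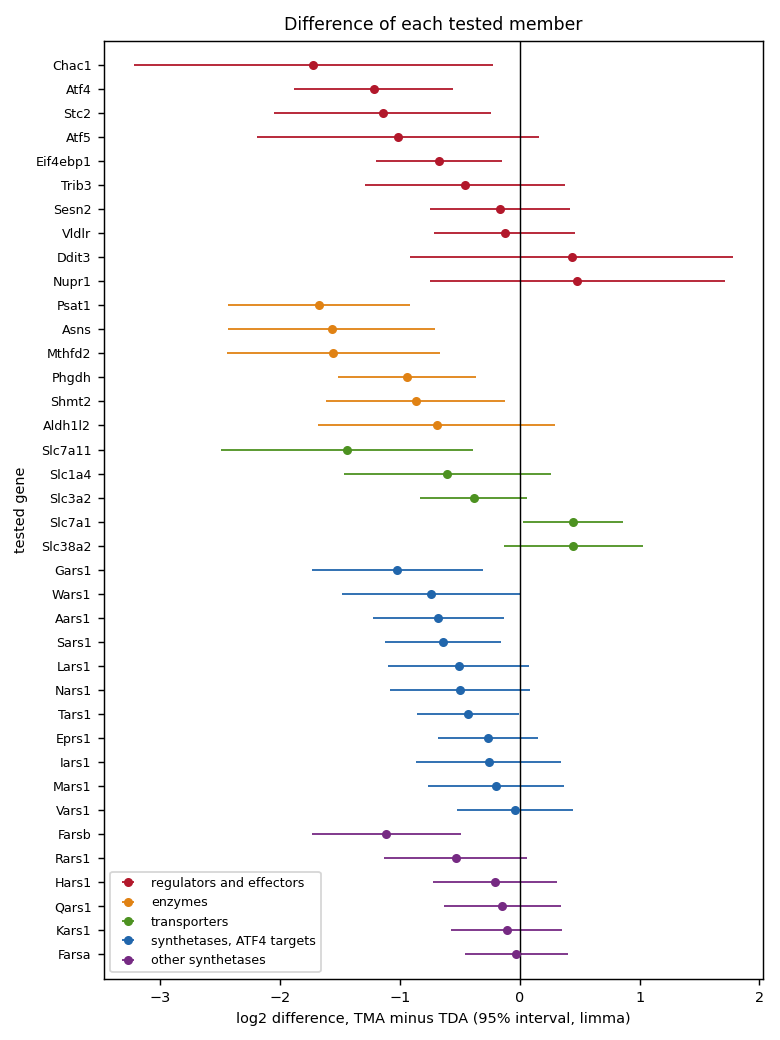
Points give the log2 difference, TMA minus TDA, of each of the 38 tested genes with its 95% interval from limma, coloured by role. All 6 enzymes and all 17 tested synthetases lie left of 0, and the 4 genes on the right are Ddit3, Nupr1, Slc7a1 and Slc38a2.

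Among the regulators, the Atf4 transcript itself was lower on each TMA array than on any TDA array. Its probe measured 11.94, 11.17 and 11.02 on TMA1, TMA2 and TMA3, against 12.26, 13.22 and 12.31 on TDA1, TDA2 and TDA3. The difference was -1.22 ± 0.30 (standard error, limma adjusted p = 0.0539), and a second Atf4 probe gave -0.46 (limma adjusted p = 0.313), also with no overlap. Since ATF4 is controlled largely in translation, its transcript level is not a measure of the protein. Atf5, a related factor translated in a similar way, overlapped between groups, with 10.88 on TMA1 above 10.01 on TDA1, and a difference of -1.02 (limma adjusted p = 0.351).

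Most effectors of the response had lower TMA means, and none passed the threshold. Eif4ebp1, the translation repressor that binds eIF4E, had 11.51, 10.98 and 10.96 on TMA1, TMA2 and TMA3, against 11.55, 12.22 and 11.69 on TDA1, TDA2 and TDA3, a difference of -0.67 (limma adjusted p = 0.153). Stc2, a secreted stanniocalcin, measured 8.29, 8.01 and 8.12 on TMA1, TMA2 and TMA3, against 8.60, 10.57 and 8.67 on TDA1, TDA2 and TDA3. The groups of both genes were apart, but for Stc2 most of the difference of -1.14 (limma adjusted p = 0.158) lay on TDA2. Chac1, singled out after its values were seen because its difference of -1.72 was the largest of all 38, gave 10.30, 8.53 and 8.74 on TMA1, TMA2 and TMA3, against 10.13, 12.92 and 9.69 on TDA1, TDA2 and TDA3. TMA1 exceeded both TDA1 and TDA3, and limma gave an adjusted p of 0.200. The difference of Trib3 was -0.46 and that of Sesn2, a leucine sensor that restrains mTORC1, was -0.17, with overlapping groups. Vldlr, a lipoprotein receptor, differed by -0.13, and 4 further Vldlr probes ran from 0.04 to 0.25.

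Ddit3 and Nupr1 had higher TMA means. Ddit3 measured 9.36, 11.69 and 9.74 on TMA1, TMA2 and TMA3, against 8.84, 11.26 and 9.39 on TDA1, TDA2 and TDA3. Both arrays numbered 2 stood above the other 4, and the difference was 0.43 ± 0.62 (standard error, limma adjusted p = 0.783). Its direction turned to -0.28 without TMA2 and to -0.06 without TDA1. Nupr1, a small stress-induced chromatin protein gene named here after its values were seen, had 11.62, 12.11 and 11.72 on TMA1, TMA2 and TMA3, against 10.21, 13.16 and 10.64 on TDA1, TDA2 and TDA3. The TMA values formed a narrow band above TDA1 and TDA3 and below TDA2. With all arrays the difference was 0.48 (limma adjusted p = 0.727). Without TDA2, its highest array, the difference was 1.39. Gene and array were both singled out from these values, so that fit is no independent evidence.

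**Figure D3:**
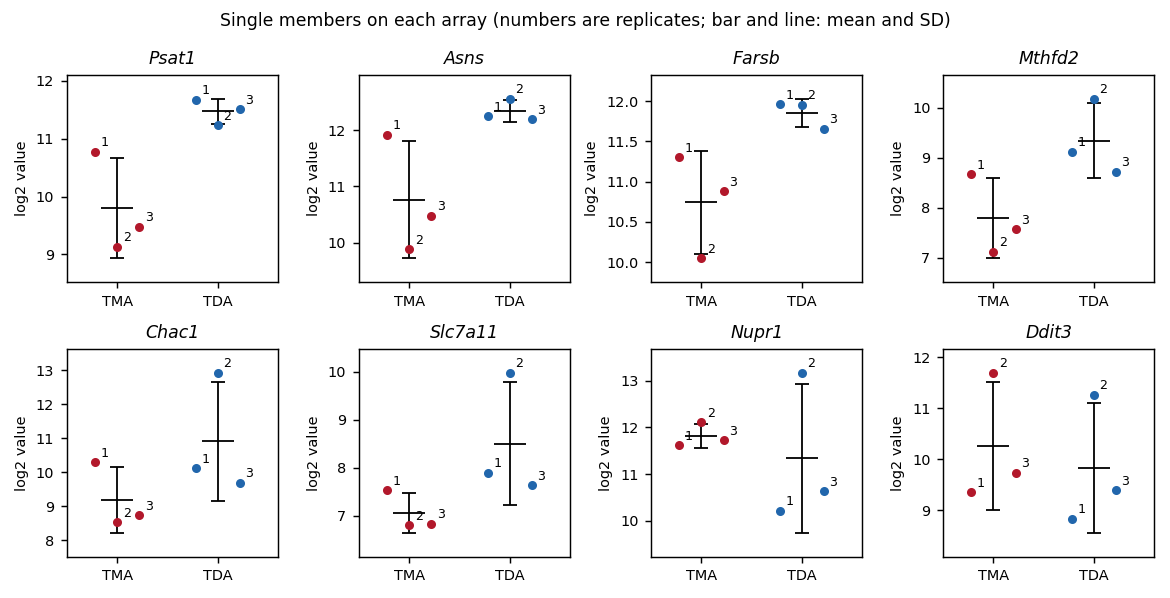
Log2 values of 8 genes on each array, with the replicate number beside each point and the mean ± SD of 3 arrays per group as bars; the vertical axes differ between panels and do not start at 0. Psat1, Asns, Farsb and Mthfd2 in the upper row separate the groups, and in the lower row TDA2 stands far above TDA1 and TDA3.

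The amino acid transporters differed in direction. Of 5 tested genes, 3 had lower and 2 had higher TMA means, and limma called 0. That split includes Slc3a2 (lower) and Slc7a1 (higher), which passed the filter through 1 group alone. Of the others, Slc7a11 and Slc1a4 were lower and only Slc38a2 was higher. At an unadjusted p under 0.05, Slc7a11 was lower. Slc7a1 is left out of that count for the reason given below. Slc7a11, the cystine and glutamate exchanger that feeds glutathione synthesis, gave 7.53, 6.80 and 6.83 on TMA1, TMA2 and TMA3, against 7.89, 9.97 and 7.64 on TDA1, TDA2 and TDA3. TMA1 was just below TDA3 while TDA2 stood far above all others, and the difference was -1.45 ± 0.48 (standard error, limma adjusted p = 0.127). Slc3a2, the heavy chain that carries Slc7a11 and other light chains to the membrane, measured 7.21, 6.98 and 6.83 on TMA1, TMA2 and TMA3, against 7.23, 7.61 and 7.33 on TDA1, TDA2 and TDA3, a difference of -0.39. No p is given for it, because it passed the filter only through the TDA arrays. Slc7a1, a carrier of arginine and lysine, ran the other way, with 7.41, 7.32 and 7.27 on TMA1, TMA2 and TMA3, against 6.81, 7.08 and 6.78 on TDA1, TDA2 and TDA3. All 3 TMA values were above the TDA values, with a difference of 0.44. It passed the filter only through the TMA arrays, so its test is not given as a result. A second, dimmer Slc7a1 probe gave -0.21. The neutral amino acid carrier gene Slc38a2 differed by 0.45 with overlapping groups, and its other probes by 0.00 and -0.22. The remaining neutral carriers Slc1a4 and Slc1a5 differed by -0.60 and 0.24, and Slc7a3, another carrier of basic amino acids, by -0.22, with overlap in each, and the last 2 were too dim to test.

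The cytosolic synthetase genes had lower TMA means in all 17 tested cases by the probe chosen for each. Their median difference was -0.44, with 0 calls in limma after adjustment. Vars1, at -0.04, gave 0.03 and -0.11 on its other tested probes. Against TDA1 and TDA3 alone, the median was -0.26 and 15 of 17 were lower. At an unadjusted p under 0.05, 6 were lower and 0 higher, beside 8.92% and 9.6% of all tested probes. The 13 synthetases known as ATF4 targets and the 6 other subunits are given apart. Of the first set 11 were tested, with a median difference of -0.50 and a range from -1.02 to -0.04. The second set, all 6 tested, had a median of -0.18 and a range from -1.12 to -0.03. With TDA2 left out the medians were nearly level, at -0.29 for the 11 ATF4 targets (10 below 0) and -0.26 for the 6 other subunits (5 below 0). The 10 tested mitochondrial synthetase genes, encoded separately from the cytosolic enzymes, had a median of -0.01, with 5 below and 5 above 0. The difference between these sets was not tested.

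Gars1, the glycyl-tRNA synthetase gene, had the largest difference of the ATF4 target set. It measured 12.42, 11.87 and 12.04 on TMA1, TMA2 and TMA3, against 12.94, 13.98 and 12.48 on TDA1, TDA2 and TDA3. The groups did not overlap, with TMA1 just below TDA3, and the difference was -1.02 ± 0.33 (standard error, limma adjusted p = 0.113). Without TDA2 it was -0.60. Aars1, for alanine, gave 11.10, 10.31 and 10.42 on TMA1, TMA2 and TMA3, against 11.14, 11.62 and 11.11 on TDA1, TDA2 and TDA3, a difference of -0.68 (limma adjusted p = 0.164). TMA1 was only just below TDA1 and TDA3. Sars1, for serine, read 10.31, 10.43 and 10.41 on TMA1, TMA2 and TMA3, against 10.69, 11.43 and 10.95 on TDA1, TDA2 and TDA3. Here the 3 TMA values agreed closely below every TDA value, and the difference was -0.64 (limma adjusted p = 0.142), with -0.26 on its second probe. Tars1, for threonine, had 7.91, 7.64 and 7.55 on TMA1, TMA2 and TMA3, against 8.14, 8.06 and 8.20 on TDA1, TDA2 and TDA3, a difference of -0.44 (limma adjusted p = 0.256), and TDA2 was the lowest TDA array. Wars1, for tryptophan, differed by -0.74 (limma adjusted p = 0.270), and its 3 other probes by -0.77, -0.47 and -0.71. For Lars1, Nars1, Eprs1, Iars1, Mars1 and Vars1, which load leucine, asparagine, glutamate with proline, isoleucine, methionine and valine, the differences were -0.51, -0.50, -0.27, -0.26, -0.20 and -0.04. Eprs1 was the only 1 of these 6 whose groups did not overlap. The dim probes of Cars1 and Yars1, for cysteine and tyrosine, differed by 0.31 and 0.27.

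Farsb, the β subunit of phenylalanyl-tRNA synthetase, had the largest difference of the 17 tested synthetases although it lies outside the ATF4 target set. Its values were 11.30, 10.05 and 10.88 on TMA1, TMA2 and TMA3, against 11.96, 11.96 and 11.66 on TDA1, TDA2 and TDA3. The TDA values agreed closely, all of them above TMA1, and the difference was -1.12 ± 0.29 (standard error, limma adjusted p = 0.0573), with -0.99 on its second probe. Farsa, the α subunit of the same enzyme, differed by -0.03 with overlapping groups. Rars1, for arginine, differed by -0.54, and Hars1, Qars1 and Kars1, for histidine, glutamine and lysine, by -0.21, -0.15 and -0.11, none past the threshold.

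**Figure D4:**
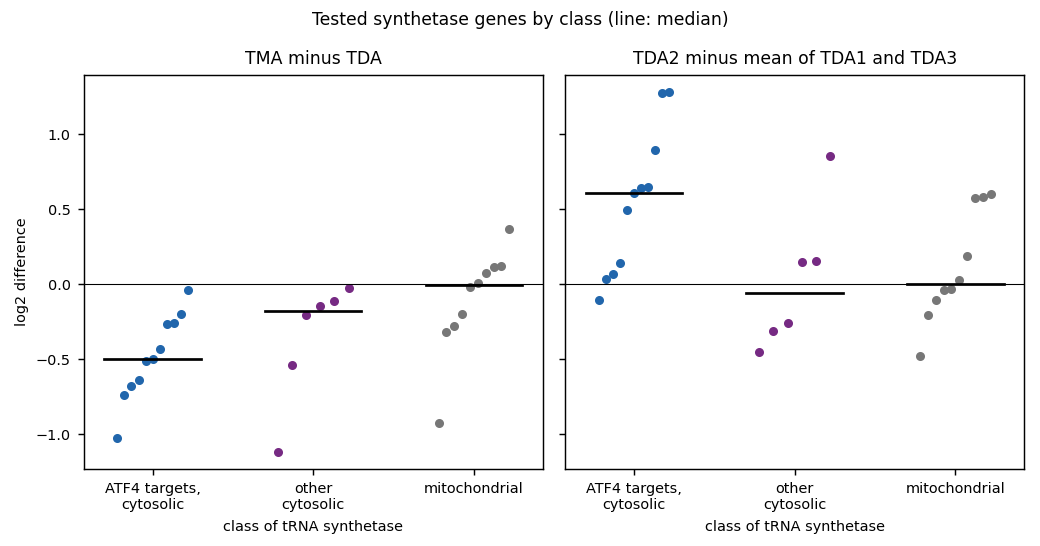
Each point is a tested synthetase gene, in 3 classes along the horizontal axis, with the log2 difference between TMA and TDA on the left and that between TDA2 and the mean of TDA1 and TDA3 on the right; black lines are medians. Medians were -0.50, -0.18 and -0.01 on the left and 0.61, -0.06 and 0.00 on the right.

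TDA2 was set against TDA1 and TDA3 to show which genes made it stand apart. This compares single arrays of 1 group and has no test. TDA2 was singled out from these same values, so the shares are a description and no independent evidence. TDA2 was at least 2-fold above the mean of TDA1 and TDA3 in 13 of the 38 genes, or 34.2%, beside 2.30% of all tested probes, and at least 2-fold below it in 0 genes, beside 2.86%. The 13 genes came from 4 of the 5 roles. TDA2 exceeded that mean by 3.01 for Chac1, 2.74 for Nupr1, 2.15 for Ddit3, 1.94 for Stc2, 1.82 for Atf5 and 1.53 for Trib3 among the regulators and effectors. The carrier genes Slc7a11 and Slc1a4 were 2.21 and 1.42 above it, the mitochondrial folate genes Aldh1l2, Shmt2 and Mthfd2 were 1.92, 1.34 and 1.26 above it, and the synthetase genes Wars1 and Gars1 were 1.28 and 1.27 above it. Psat1 and Asns, by contrast, differed by -0.36 and 0.34. By role, the median gap was 1.68 for the 10 regulators and effectors, 1.06 for the 6 enzymes, 0.69 for the 5 transporters, 0.61 for the 11 synthetases known as ATF4 targets and -0.06 for the 6 other synthetase subunits, beside -0.001 for all tested probes. Mean raw signal of TDA2 lay between that of TDA3 and TMA2, and the part of any culture or array difference in this pattern was not tested.

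With TDA2 set aside, 4 genes had a TMA mean at least 2-fold below the mean of TDA1 and TDA3, or 10.5%, beside 1.98% of all tested probes: Psat1 at -1.80, Asns at -1.46, Mthfd2 at -1.14 and Farsb at -1.07. Atf4 came next at -0.91. Each of the 3 TMA arrays lay below both TDA1 and TDA3 in 16 genes, or 42.1%, beside 18.3% of all tested probes. TDA2 was set aside after these values were seen, so both shares are a description and no independent evidence. Ddit3 and Nupr1 were on the other side, at 1.15 and 1.39. Chac1 and Trib3, both high on TDA2, were at -0.72 and 0.05 on this measure.

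**Figure D5:**
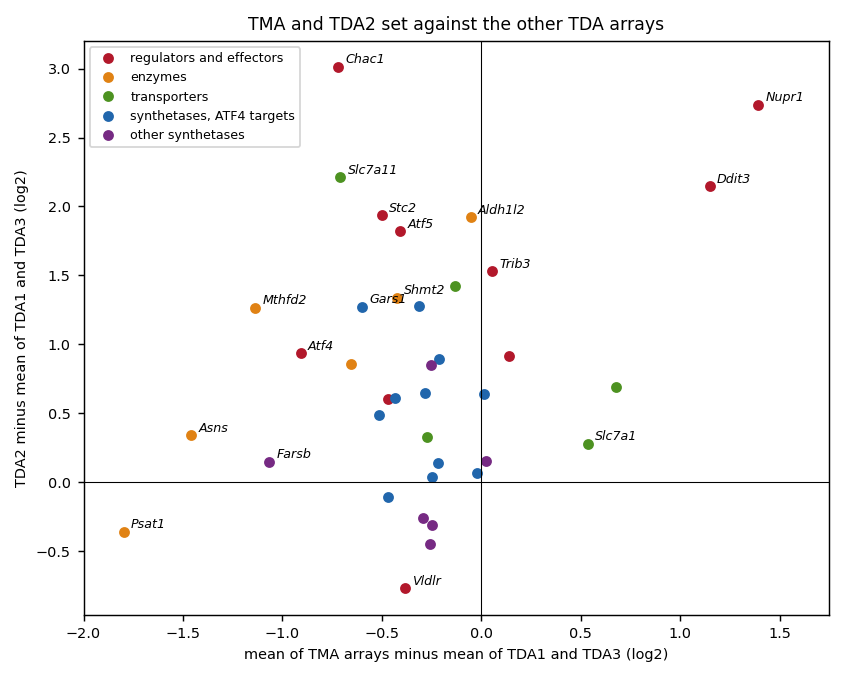
Each point is a tested gene, coloured by role; the horizontal axis gives the mean of the TMA arrays and the vertical axis gives TDA2, both minus the mean of TDA1 and TDA3 on the log2 scale. Both axes share TDA1 and TDA3, so the points are not to be read as a correlation. Psat1, Asns and Farsb lie far left near 0 on the vertical axis. Chac1, Slc7a11 and Stc2 lie high and left of 0, and Nupr1 and Ddit3 lie high and right of 0.

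Promoters with and without the response element were compared by the same measures. Over the 11 tested genes with a match the median difference was -0.60, with 10 below 0, and over the 19 tested genes whose windows held none it was -0.39, with 16 below 0. The median gap of TDA2 over TDA1 and TDA3 was 1.27 in the 11 genes with a match and 0.64 in the 19 without. The difference between these groups of genes was not tested.

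Other genes of the pathway were read from lists chosen for their roles with earlier results of these data known, so they are no independent check. For comparison, limma called 1.49% of all tested probes lower and 1.53% higher after adjustment. A difference below 0 was seen in 50.6% of all tested probes. Lower at an unadjusted p under 0.05 were 8.92%, and higher 9.6%. Among partners of the synthetases, Aimp2, a scaffold of the multi-synthetase complex, fell by 0.92 on the log2 scale (limma adjusted p = 0.0305), with 8.49, 8.31 and 8.33 on TMA1, TMA2 and TMA3, against 9.09, 9.42 and 9.38 on TDA1, TDA2 and TDA3. TMA and TDA values of this gene were each tightly grouped. The scaffold partners Eef1e1 and Aimp1 differed by -0.50 and -0.28, so all 3 tested genes of that list were below 0. Limma called 1 of them lower and 0 higher. In the wider serine, glycine and folate list, Mthfd1, the cytosolic trifunctional folate enzyme, fell by 1.25 (limma adjusted p = 0.0178), with 8.14, 7.92 and 7.49 on TMA1, TMA2 and TMA3, against 8.81, 9.25 and 9.24 on TDA1, TDA2 and TDA3. It was the only 1 of 6 tested to pass, and the list's median was -0.39. Of the 10 mitochondrial synthetases 0 passed, with 1 at an unadjusted p under 0.05, Ears2 at -0.92 (limma adjusted p = 0.0723), followed by Mars2 at 0.37.

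Further ATF4 targets and partners did not share the direction. Of 8 tested, 7 had higher TMA means, with a median difference of 0.12, and limma called 0, with 0 at an unadjusted p under 0.05. The genes of the partner factor Cebpb and of the alanine aminotransferase Gpt2 had the smallest p, at 0.36 and -0.54. The median gap of TDA2 over TDA1 and TDA3 in this list was 0.89, and the autophagy adaptor gene Sqstm1, named after its values were seen, reached 13.35 on TDA2, with 10.93 on TDA1 and 11.16 on TDA3. Of 8 tested genes of eIF2, its kinases and its phosphatases, limma called 0 and the median was 0.02, with 1 gene at an unadjusted p under 0.05. The lowest p belonged to the phosphatase gene Ppp1ca at -0.64 and the eIF2 subunit gene Eif2s2 at 0.48. Ppp1r15a, the stress-induced phosphatase subunit, named after its values were seen, shared the pattern of Ddit3, with 9.69 on TMA2, against 8.85 and 8.90 on TMA1 and TMA3, and 10.24 on TDA2, with 8.31 on TDA1 and 8.45 on TDA3.

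Among 11 other amino acid transporters tested, Slc1a1, a glutamate and cysteine carrier, rose by 1.28 (limma adjusted p = 0.0330), with 10.50, 10.15 and 10.32 on TMA1, TMA2 and TMA3, against 9.37, 8.35 and 9.42 on TDA1, TDA2 and TDA3. TDA2 was the lowest array for this gene. The list's median was -0.07, with 7 of 11 below 0, and limma called 0 of its genes lower. Of 13 tested genes of amino acid sensing upstream of mTORC1, Nprl2, a subunit of the GATOR1 brake, rose by 0.96 (limma adjusted p = 0.0401). Limma called 0 genes of that list lower, 3 had a difference below 0, and the median was 0.13. The values of Nprl2 were 10.07, 10.49 and 10.31 on TMA1, TMA2 and TMA3, against 9.26, 9.08 and 9.64 on TDA1, TDA2 and TDA3, with no overlap. Chaperone genes driven by the ATF6 and XBP1 branches of the unfolded protein response, which run in parallel to ATF4, had 0 of 11 called in limma and 1 at an unadjusted p under 0.05, Dnajb9 at 0.46, followed by Pdia6 at -0.48. The chaperone list had a median of -0.36, with 8 of 11 below 0. Against TDA1 and TDA3 alone its median was -0.30, close to the -0.29 of the 38 genes of amino acid supply. Its median gap of TDA2 over TDA1 and TDA3 was -0.26, opposite in sign to the 0.67 of those 38 genes. The calls of Aimp2, Mthfd1, Slc1a1 and Nprl2 all ended when TMA2, TMA3, TDA1 or TDA3 was left out, with limma adjusted p up to 0.156, 0.120, 0.156 and 0.177, and that of Slc1a1 also without TMA1. Without TDA2 all 4 calls held.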

How the data were processed

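RNA of 6 arrays, 3 titled TMA and 3 titled TDA, was labelled and hybridised following Illumina's protocol, per the labels' protocols. The authors deposited a table of non-normalized signal intensity per probe, with no detection p-values, and a table of normalized log2 values. For that normalization the method is not given in the sources used here. Rank correlations of the columns with the intensity of the same array were above 0.999.

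Intensity was corrected with normexp (offset 50), quantile normalized and put on the log2 scale in limma 3.58.1 (R 4.3.3), which understates changes of dim genes. Probes with a mean above the median of all probes entered a two-sided test (lmFit, then eBayes) with 4 residual degrees of freedom. P-values were adjusted by Benjamini-Hochberg over 12848 probes, with 0.05 as the threshold. Of 25697 probes, 23846 had 1 gene symbol, 0 had several and 1851 were unnamed here. Of the 48 genes, 16 were matched through older symbols. The number of arrays limits the precision.

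Members and lists were chosen with earlier results of these data known. Values on every array are given for Atf4, Ddit3, Asns, genes past the threshold, and up to 4 genes per role with the largest differences among those without overlap; from other lists, genes past the threshold or else the 2 with the smallest p are named. No label says that replicate numbers pair the arrays, and whether they do is not known. Deviations of same-numbered arrays correlated at 0.126, 0.0133 and 0.0269. The fit was tested on simulated data. Figures were drawn with matplotlib 3.10.9 (Python 3.11.15).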

Additional observations from a re-analysis of the deposited data

How the results depend on the processing

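The count of calls over all tested probes, 387, became 129 with median scaling, 198 without background correction, 232 with the stricter filter (probes above the 75th percentile) and 1906 with array quality weights. The authors' table gave 135, of which 55 were higher and 80 lower, where the normexp-corrected intensity gave 196 higher and 191 lower. The count ranged from 3 without TMA3 to 695 without TMA1 when 1 array was left out. The count of called genes of amino acid supply, 1, fell to 0 when background correction was skipped. There limma gave 11 lower at an unadjusted p under 0.05, beside 8.91% of all tested probes. The authors' table also gave 0 calls, with 11 genes lower at the unadjusted threshold, beside 9.29%. The count was 2 with cyclic loess, all lower, beside 1.6% of all tested probes called lower. With no filter it was 4, all lower, beside 0.7% of all 25697 probes. With array quality weights it was 10, 9 of these lower (beside 7.43% of all tested probes). It ranged from 0 to 6 with 1 array left out. The replicate block, with the replicate number as a term though no label pairs the arrays, gave 5, Psat1, Atf4, Asns, Farsb and Mthfd2, all lower. It gave 518 over all tested probes, 254 or 1.98% lower. The median difference stayed between -0.71 and -0.29 over the alternatives. Psat1 lost its call without background correction (limma adjusted p = 0.0650) and in the authors' table (limma adjusted p = 0.0684). Its direction was the same in all 17 alternatives, but some of these cannot change a difference. Those that alter only the filter, the block or the variance prior leave it as it was, as does the probe choice for a gene with 1 tested probe. With 1 array left out Ddit3 ranged from -0.28 (without TMA2) to 1.15 (without TDA2), and was -0.06 without TDA1. The other genes given array by array by the naming rule, which leaves out Chac1 and Nupr1, kept their direction throughout, with the same limit. Only tested probes were used. Untested second probes of Slc7a1, at -0.21, and Tars1, at 0.26, went the other way. Taking the second-brightest tested probe where a gene had one, and the same probe otherwise, 32 of 38 genes had differences below 0. Genes with 1 tested probe repeat their main value in that count. The causes of these changes were not tested. Without detection p-values, signal over background could not be judged, and dim genes carry understated differences.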
